A study of Mus musculus with 36 samples.

Results

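The genes described here mark multiciliated cells, the airway lining cells whose beating cilia carry mucus and particles out of the lung. A list of 39 such genes was followed. Of these, 36 were found on the arrays through their RefSeq identifiers and 34 had enough signal to be tested, among 23256 genes tested in all. Armc4, Ccdc40 and Lrrc23 were matched to no probe. The probe of Rfx3 passed background in 7 of 29 mice and that of Dnah9 in 0 of 29, so neither was tested.

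Lung RNA came from 29 female C57BL/6 mice, 5 to 7 weeks old when housed, given one instillation into the trachea of 40 µl with tube-shaped titanium dioxide nanoparticles (Tube TiO2 NPs), or with 0 µg of them in the controls. Lungs collected at day 1 came from 4 control mice (0 µg), 3 mice at 18 µg, 3 at 54 µg and 4 at 162 µg. At day 28 there were 3 control mice and 4 mice at each of the 3 doses. RNA was taken from random sections of lung, and each value is a log2 ratio of lung over a reference RNA of 11 mouse cell lines on the same array, so 1 unit is a 2-fold difference. One mouse, replicate 1 of 162 µg at day 28, is day 1 in its titles and day 28 in its time label, which was followed.

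A motile cilium is built on a ring of doublet microtubules around a central pair. Dynein arms bend the doublets, radial spokes and the central pair control the arms, and proteins inside the microtubule wall stiffen it. The program is started by Mcidas and carried by Foxj1 and by the RFX factors, which bind a DNA motif called the X-box.

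The promoters of 4 genes are shown because these genes moved together most closely from mouse to mouse among those with a short core of the RFX motif, GTTGCC on either strand, upstream of the start. They are RefSeq promoters of GRCm38.p6, the 250 bases before the annotated start, written 5′ to 3′ along the gene, with GTTGCC, or its reverse complement, in capitals. Ccdc113, an axonemal and centriolar satellite protein, lies at chr8:95533850-95534099 on the plus strand. Drc1, of the nexin-dynein regulatory complex that links doublets, lies at chr5:30281143-30281392 on the plus strand. Cdhr3, a cadherin of the ciliated cell surface, lies at chr12:33092876-33093125 on the minus strand. Tekt1, a tektin of the doublet wall, lies at chr11:72361883-72362132 on the minus strand.
Ccdc113: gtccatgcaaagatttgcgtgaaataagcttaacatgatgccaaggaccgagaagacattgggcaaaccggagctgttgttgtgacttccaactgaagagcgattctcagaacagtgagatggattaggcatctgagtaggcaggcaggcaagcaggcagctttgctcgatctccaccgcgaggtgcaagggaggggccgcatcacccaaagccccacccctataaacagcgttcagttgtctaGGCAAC
Drc1: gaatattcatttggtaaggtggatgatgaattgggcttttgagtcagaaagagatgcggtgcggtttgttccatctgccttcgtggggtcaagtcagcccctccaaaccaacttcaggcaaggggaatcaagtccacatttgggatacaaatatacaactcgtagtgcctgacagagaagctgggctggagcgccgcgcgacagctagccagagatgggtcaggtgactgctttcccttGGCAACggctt
Cdhr3: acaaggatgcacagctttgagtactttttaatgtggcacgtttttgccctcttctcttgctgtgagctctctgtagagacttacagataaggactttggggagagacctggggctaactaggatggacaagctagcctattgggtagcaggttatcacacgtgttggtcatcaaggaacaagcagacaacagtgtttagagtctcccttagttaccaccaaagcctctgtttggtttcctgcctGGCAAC
Tekt1: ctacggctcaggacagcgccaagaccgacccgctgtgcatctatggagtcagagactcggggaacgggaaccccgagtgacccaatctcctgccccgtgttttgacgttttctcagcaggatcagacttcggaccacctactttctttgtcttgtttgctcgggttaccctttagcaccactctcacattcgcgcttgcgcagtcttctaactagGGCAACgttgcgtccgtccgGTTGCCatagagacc

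Of the 39 listed genes, 33 had a promoter in the RefSeq table, and 20 of these 33 (60.6%) held GTTGCC on either strand within the 300 bases from 250 before to 50 after a start. Over single promoters the share was 53.8% of 39 promoters of these genes against 12.5% of all 32851 promoters. Of the 27 matches, counted in each promoter, 23 lay before the start and 16 within the last 100 bases before it. Overlapping promoters of a gene can thus count the same bases more than once. Tekt2 held 4 of the matches, at -138 and -96 in forward and at -64 and -22 in reverse orientation. The spacing is equal in both orientations, so these are likely 2 sites counted in 2 overlapping promoters. Tekt1, Spag16, Lrrc23 and Mns1 held 2 each. A forkhead motif, TGTTTAC on either strand, was in 3 of the 33 genes (Ak7, Cfap43 and Sntn), which is 7.69% of their promoters against 3.65% of all promoters. A second forkhead form, TGTTTGT, was in 0% of their promoters and in 6.61% of all. CCAAT was in 35.9% of their promoters and in 37.4% of all, and TATAAA in 7.69% and 13.6%. A match is only a stretch of letters, and no binding was measured.

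Ciliated cell genes were mostly far above the cell line reference. The ratio was above 0 in all 29 mice for 30 of the 34 genes. The medians over the mice ran from -0.43 for Mns1, a protein of the inner doublet wall, to 5.81 for Ccdc153. Mns1 was above the reference in 1 of 29 mice, Rfx2 in 16, Ropn1l in 18 and Dnaaf1 in 21. For 5 genes (Dnah5, Spag16, Spag17, Ak7 and Sntn) the reference was well above background on 0 of 36 arrays, and for another 4 (Ccdc39, Cdhr3, Meig1 and Enkur) on 1 to 7. The ratio of these 9 therefore rests on a reference level near background.

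On 12 of the 36 arrays skeletal muscle transcripts stood apart. Their list mean was 10.28 to 14.99 in normalized log2 Cy5 intensity, against at most 7.97 elsewhere. Of the 12, 8 also carried squamous epithelium transcripts above 8. At day 1 these muscle arrays fell on 4 of 4 control mice, 1 of 3 at 18 µg, 1 of 3 at 54 µg and 1 of 4 at 162 µg. At day 28 they fell on 0 of 3 control mice, 1 of 4 at 18 µg, 3 of 4 at 54 µg and 0 of 4 at 162 µg. The mean of the 34 ciliated cell genes was 1.5 to 2.74 on muscle arrays (median 2.19) and 1.81 to 2.82 on the others (median 2.36), and the part of muscle tissue in the results below was not tested beyond the values given.

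The main pattern in these genes was joint variation within groups. How much of it lay between mice, and how much between arrays of the same mouse, was not tested. Within groups, 29 of the 34 genes correlated above 0.5 with the mean of the other 33, and 23 above 0.8. Of the tested genes outside the list, 5.16% reached 0.5. Over the 561 pairs of genes the within-group correlation had a median of 0.70 and ran from -0.47 to 0.95. These correlations are over 29 mice after subtraction of group means, they are given as a description, and genes on one array share its RNA, dye and normalization. In a bulk sample, fewer ciliated cells and less RNA per ciliated cell cannot be told apart.

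**Figure D1:**
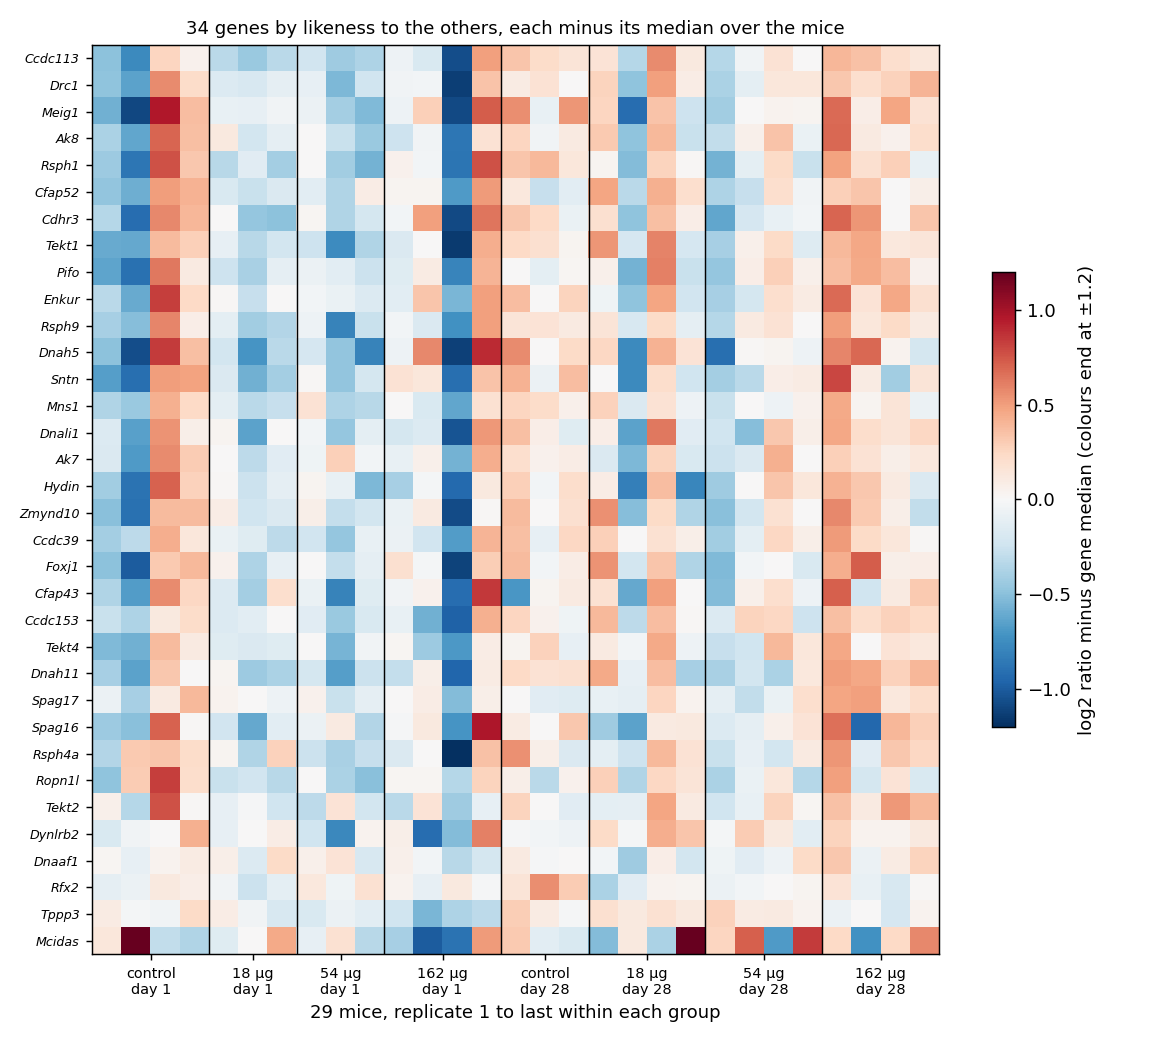
Log2 ratio of each of 34 ciliated cell genes (rows, ordered by within-group correlation with the mean of the others) in each of 29 mice (columns, by group), minus the gene's median over the mice. Replicate 3 of 162 µg at day 1 is below the gene median in every row but that of Rfx2. Rfx2, Tppp3 and Mcidas do not follow the columns, and Dynlrb2 (0.49) and Dnaaf1 (0.48) follow them in part.

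Ccdc113 had the highest within-group correlation with the other genes, 0.97, followed by Drc1 at 0.95 and Meig1 and Ak8 at 0.94. The 5 genes at or below 0.5 were Dynlrb2, a light chain shared with cytoplasmic dynein (0.49), Dnaaf1, which helps to assemble dynein arms before transport (0.48), Rfx2 (0.18), Tppp3, a tubulin-binding protein (0.03), and Mcidas (-0.24). The median within-group SD was 0.37 over the 34 genes and 0.20 over all genes tested. It was 0.11 for Tppp3, the lowest of the 34, and 0.69 for Mcidas, the highest.

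Drc1 shows the shared pattern. At day 1 its log2 ratio was 3.54, 3.38, 4.59 and 4.24 in the controls, 3.86, 3.83 and 3.91 at 18 µg, 3.92, 3.48 and 3.78 at 54 µg, and 3.98, 3.99, 2.89 and 4.36 at 162 µg. The controls spanned more than either lower dose, and replicate 3 of 162 µg was the lowest mouse. At day 28 Drc1 was 4.12, 4.19 and 4.02 in the controls, 4.29, 3.54, 4.51 and 4.11 at 18 µg, 3.64, 3.90, 4.16 and 4.16 at 54 µg, and 4.34, 4.22, 4.30 and 4.43 at 162 µg. The 162 µg mice were all above the day 28 controls, by a mean of 0.22 (SE 0.28), which did not pass the test across all genes (limma adjusted p = 1).

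Averaged over the 34 genes, a mouse's log2 ratio ran from 1.5 to 2.75, a 2.38-fold span. The lowest mouse was replicate 3 of 162 µg at day 1, in which 32 of the 34 genes were among their 3 lowest values. It carried a muscle array, with muscle at 13.67 and squamous genes at 11.11. The highest was replicate 1 of 162 µg at day 28, the mouse with conflicting day labels, in which 21 genes were among their 3 highest. Day 1 controls held both extremes as well: replicate 2 had 23 genes among their 3 lowest and replicate 3 had 20 among their 3 highest.

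**Figure D2:**
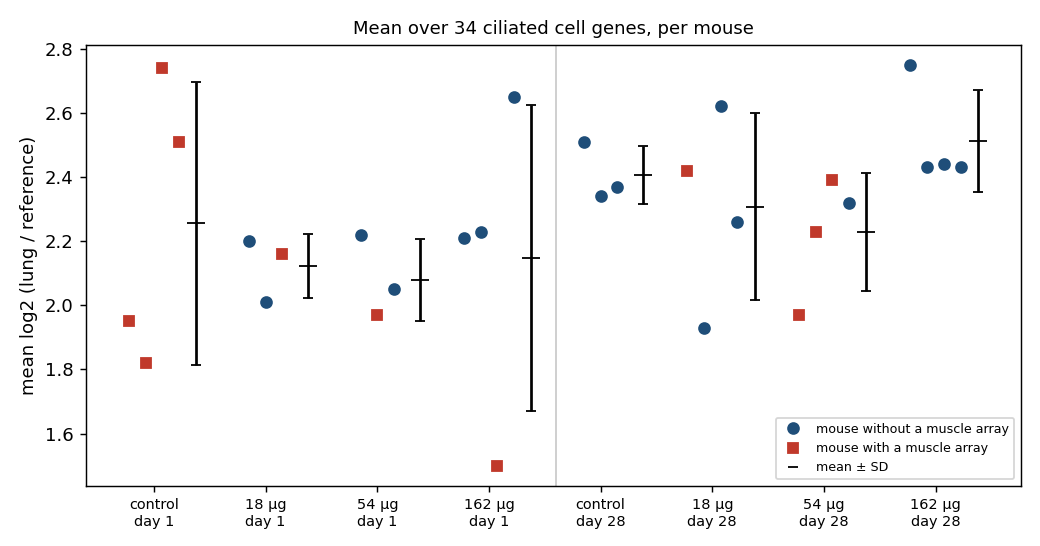
Mean log2 ratio over 34 ciliated cell genes in each mouse, by group, with mean ± SD at the right of each group; squares mark mice with a muscle array. Day 1 controls (1.82 to 2.74) and 162 µg mice at day 1 (1.5 to 2.65) cover nearly the same range.

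By group this mean was 2.25 ± 0.44 (SD, n = 4) in day 1 controls, 2.12 ± 0.10 (n = 3) at 18 µg, 2.08 ± 0.13 (n = 3) at 54 µg and 2.15 ± 0.48 (n = 4) at 162 µg. At day 28 it was 2.41 ± 0.10 (n = 3) in controls, 2.31 ± 0.29 (n = 4) at 18 µg, 2.23 ± 0.18 (n = 4) at 54 µg and 2.51 ± 0.16 (n = 4) at 162 µg. At day 1 the range of every treated group overlapped that of the controls, and at day 28 so did those of all 3 doses.

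Mice measured on 2 arrays give a view of the error. The mean of the 34 genes differed between the arrays of one mouse, slide 5 minus slide 1, by 0.27 in the day 1 control, 0.28 at 162 µg day 1, -0.55 at 18 µg day 1, 0.43 at 54 µg day 1, 0.01 in the day 28 control, -0.15 at 162 µg day 28 and -0.55 at 54 µg day 28. In 5 of the 7 mice the 2 arrays thus differed by over 0.25. The group means lay between 2.08 and 2.51, and the pooled within-group SD of the mouse means was 0.27. The genes moved together here too: 33 of 34 were higher on slide 5 at 162 µg day 1, and 3 of 34 at 18 µg day 1. Muscle transcripts also differed between arrays of one mouse, at 7.26 and 13.92 for the day 1 control. Whether the 2 arrays held the same RNA extract is not given in the sources used here.

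**Figure D3:**
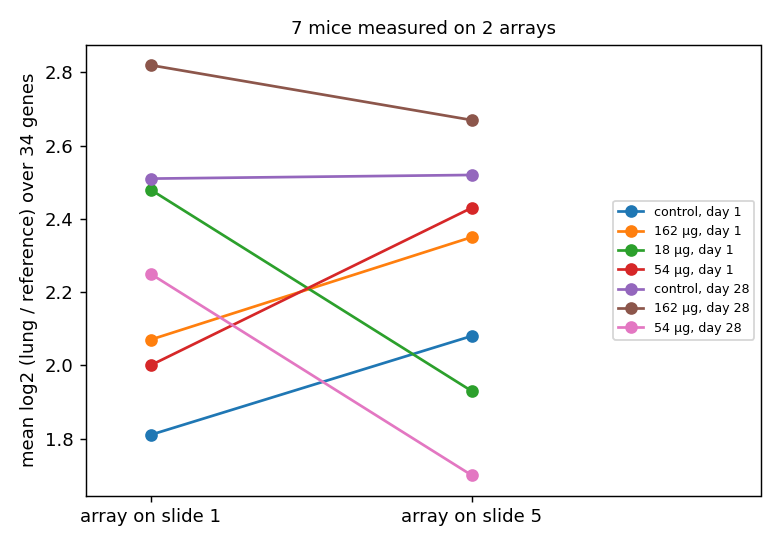
Mean log2 ratio over 34 ciliated cell genes on the slide 1 array and the slide 5 array of each of the 7 mice measured on 2 arrays. Lines cross: the 18 µg day 1 mouse went from 2.48 to 1.93 and the 54 µg day 1 mouse from 2.00 to 2.43.

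The question of the design for these genes is whether their levels changed with dose. At day 1, 162 µg against control called 1 of the 34 genes at a limma adjusted p under 0.05, Tppp3, which fell, against 1.69% of all genes tested (1.5% up and 0.193% down). At 54 µg 0 of 34 were called (0.0516% of all genes), and at 18 µg 0 of 34 (0% of all genes). At day 28, 0 of 34 were called at 162 µg (0.628% of all genes, 0.619% up and 0.0086% down), at 54 µg (0%) or at 18 µg (0%). Day 28 controls against day 1 controls called 0 of 34 (0%), and the difference between the day 28 and day 1 changes called 0 of 34 at 162 µg (0.0258%), 54 µg (0%) and 18 µg (0%). At an unadjusted limma p under 0.05, 1 of 34 (2.94%) passed at each day 1 dose, against 13% of all genes at 162 µg, 7.6% at 54 µg and 4.08% at 18 µg. At day 28, 2 passed at 162 µg (5.88%, against 4.79% of all genes), 1 at 54 µg (6.15% of all genes) and 1 at 18 µg (4.33%), and 1 passed between controls (5%). For the differences of change, 3 passed at 162 µg (8.82%, against 3.87% of all genes), 1 at 54 µg (10.2% of all genes) and 0 at 18 µg (6.68%).

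The count of 394 called genes behind the share at 162 µg day 1 moved with the mice and settings used. It was 819 without replicate 3 of 162 µg, and 249, 200, 234 and 223 without control replicate 1 or replicate 1, 2 or 4 of 162 µg. The number was 38 in a fit of only the groups compared and 168 when arrays were centred on their medians. Moving replicate 1 of 162 µg at day 28 to day 1, as its titles have it, gave 236. The number was 607 with muscle and squamous levels as covariates and 967 with slide as a block, where repeat arrays counted nearly as separate mice.

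Tppp3 binds and promotes the assembly of tubulin, and its probe had a mean log2 Cy5 intensity of 14.06. At day 1 its log2 ratio was 5.59, 5.47, 5.45 and 5.72 in the controls, 5.58, 5.45 and 5.30 at 18 µg, 5.31, 5.42 and 5.36 at 54 µg, and 5.25, 4.94, 5.12 and 5.18 at 162 µg. Every 162 µg mouse was below every control and below every mouse of the lower doses. The fall at 162 µg was -0.44 (SE 0.09, 95% interval -0.62 to -0.25), a fold of 0.74, with a limma adjusted p of 0.00723 over all genes. Within slides the difference was -0.29, -0.54, -0.33, -0.54 and -0.38, below 0 on each of slides 1 to 5. Slides 1 and 5 held repeat arrays of the same control and 162 µg mouse, so these are 4 distinct pairs of mice. On slides 1 and 5 Tppp3 was 5.58 and 5.59 in the day 1 control and 5.29 and 5.21 at 162 µg day 1. It was 5.62 and 5.55 at 18 µg day 1, and 5.40 and 5.21 at 54 µg day 1. At day 28 it was 5.78 and 5.79 in the control, 5.40 and 5.44 at 162 µg, and 6.00 and 5.53 at 54 µg. The arrays of that last mouse thus differed by more than the fall at 162 µg day 1. At day 1 the change of Tppp3 at 54 µg was -0.20 (SE 0.09, limma adjusted p = 0.656) and at 18 µg -0.11 (SE 0.09, limma adjusted p = 0.912).

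The Tppp3 call was lost with median centring of each array in place of loess (-0.19, limma adjusted p = 0.819), in a fit of only the groups compared (-0.44, limma adjusted p = 0.225) and without the muscle arrays (-0.46, limma adjusted p = 0.127), which leaves 1 day 1 control mouse. It held under 10 other alternatives (limma adjusted p 0.00212 to 0.0434). Not all of these could change the Tppp3 values. Tppp3 had 1 probe, so the mean over probes left its values as they were, as did testing without the signal filter. Leaving out the mouse with conflicting labels, grouped at day 28, altered only the shared spread.

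At day 28 Tppp3 was 5.79, 5.59 and 5.48 in controls, 5.68, 5.61, 5.67 and 5.61 at 18 µg, 5.77, 5.59, 5.60 and 5.53 at 54 µg, and 5.42, 5.49, 5.29 and 5.53 at 162 µg. The 162 µg mice overlapped the controls, with a difference of -0.19 (SE 0.09, limma adjusted p = 1). The day 28 change minus the day 1 change at 162 µg was 0.25 (95% interval -0.02 to 0.51, limma adjusted p = 1), so the test did not separate the days.

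**Figure D4:**
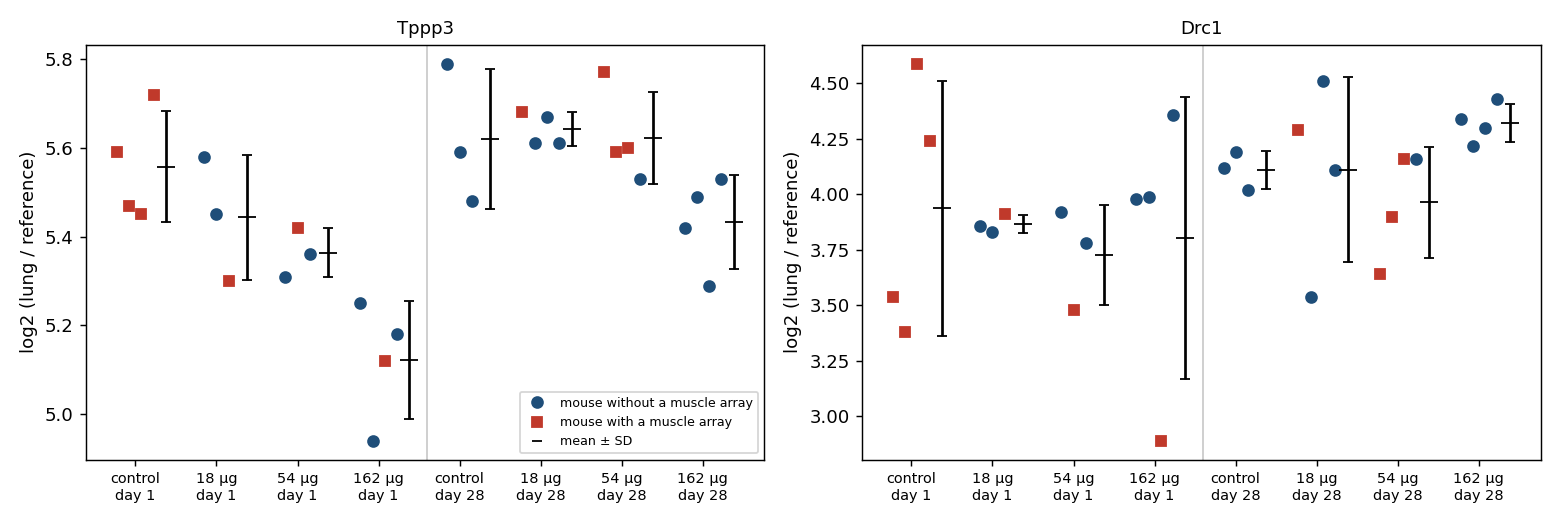
Log2 ratio of Tppp3 (left) and Drc1 (right) in each mouse, by group, with mean ± SD at the right of each group; squares mark mice with a muscle array, and the 2 vertical scales differ. Tppp3 at 162 µg day 1 lies between 4.94 and 5.25, below all day 1 controls, while Drc1 in the same mice runs from 2.89 to 4.36.

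The other genes were not called, and their medians were small beside the spread between mice. At 162 µg day 1 the median change of the 34 was -0.09, with 22 below 0, and the median of all genes was 0.01. At 54 µg it was -0.17 with 29 below 0, at 18 µg -0.13 with 30 below 0, against a median of 0 for all genes in both. Of all genes, 48.6% were below 0 at 162 µg, 49.8% at 54 µg and 50.3% at 18 µg. These 3 comparisons share the day 1 controls. The median at 162 µg became 0.14 without replicate 3 of that group, 0.08 without control replicate 3 and 0.01 without control replicate 4. Without control replicate 3 it was 0 at 54 µg and 0.03 at 18 µg.

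At day 28 the median change was 0.12 at 162 µg (27 of 34 above 0), -0.15 at 54 µg (28 below 0) and -0.11 at 18 µg (22 below 0), all against the same controls. Of all genes, 49.9% were below 0 at 162 µg (median 0), 54.5% at 54 µg (median -0.02) and 55.8% at 18 µg (median -0.02). Without the mouse of conflicting labels the 162 µg median of the 34 was 0.03. The 54 µg median was -0.08 without its replicate 1 and -0.24 without its replicate 3. The 18 µg median was 0.03 without its replicate 2, a change of sign, -0.21 without its replicate 3, -0.07 without its replicate 4 and -0.05 without control replicate 1. Day 28 controls against day 1 controls gave a median of 0.18, with 27 above 0, against 0.02 and 46.8% below 0 for all genes. Without day 1 control replicate 2 the median of the 34 was 0.04. Without the muscle arrays the medians were 0.58 at 162 µg, 0.34 at 54 µg and 0.31 at 18 µg at day 1, and 0.62 between controls, each against 1 day 1 control mouse on 1 array. Within slides the median difference at 162 µg day 1 was 0.28, 0.59, -1.35, 0.13 and 0.27 on slides 1 to 5, of which slides 1 and 5 are again the same pair of mice. It was above 0 in 3 of the 4 distinct pairs. The slide at -1.35 held replicate 3 of both groups.

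**Figure D5:**
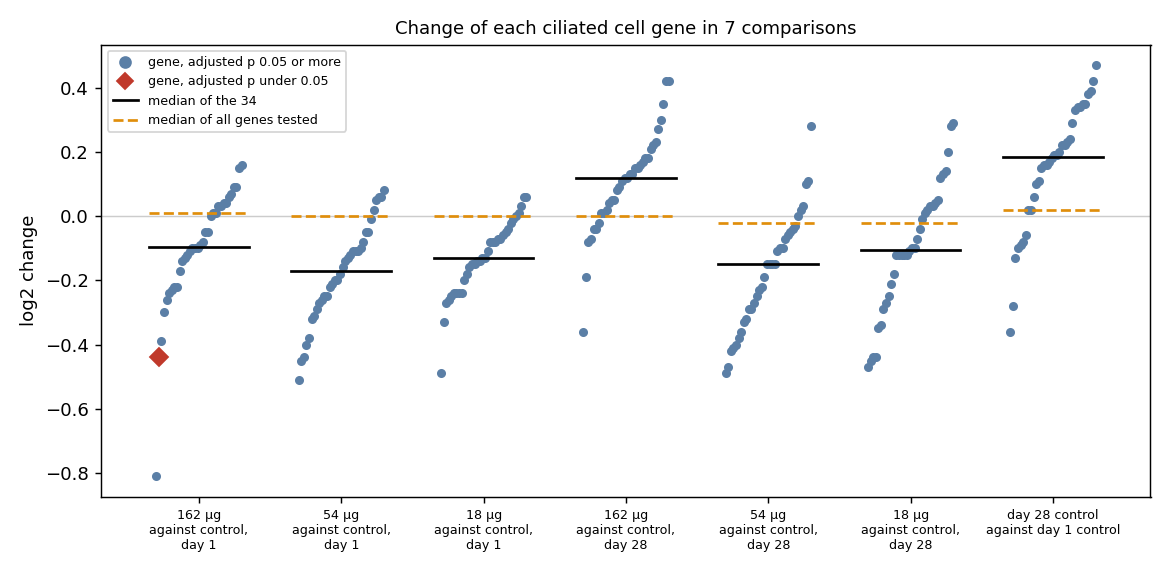
Log2 change of each of 34 ciliated cell genes (points) in 7 comparisons, with the median of the 34 (black line) and of all genes tested (dashed). Tppp3 at 162 µg day 1, at -0.44, is the 1 gene past the adjusted threshold; the medians lie between -0.17 and 0.18.

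Among the regulators, Foxj1, the forkhead factor of motile cilia, was 2.82, 2.31, 3.62 and 3.70 in day 1 controls and 3.50, 3.29, 2.20 and 3.61 at 162 µg. These groups overlapped nearly completely, and the change was 0.04 (SE 0.29, 95% interval -0.56 to 0.63, limma adjusted p = 0.978). Foxj1 at day 1 was 3.36, 2.94 and 3.21 at 18 µg and 3.31, 3.02 and 3.20 at 54 µg. Both lower doses lay inside the control range. At day 28, Foxj1 was 3.69, 3.28 and 3.40 in controls, 3.85, 3.09, 3.64 and 2.95 at 18 µg, 2.78, 3.28, 3.31 and 3.13 at 54 µg and 3.75, 4.04, 3.38 and 3.39 at 162 µg. Every dose group overlapped the controls. The change of Foxj1 at 162 µg was 0.18 (SE 0.31, limma adjusted p = 1).

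Mcidas, which starts the multiciliated program, was 1.81, 3.64, 1.37 and 1.31 in day 1 controls and 1.27, 0.67, 0.78 and 2.18 at 162 µg. One control, replicate 2, was the highest of all mice, while the other controls lay within the treated range. The change was -0.81 (SE 0.46, limma adjusted p = 0.478). The lower doses of day 1 had Mcidas at 1.52, 1.67 and 2.12 at 18 µg and 1.57, 1.85 and 1.34 at 54 µg. At day 28, Mcidas was 1.98, 1.54 and 1.49 in controls, 1.15, 1.79, 1.29 and 3.00 at 18 µg, 1.93, 2.39, 0.99 and 2.51 at 54 µg and 1.91, 0.94, 1.91 and 2.25 at 162 µg. Single mice stood out in several groups, and all dose groups overlapped the controls of their day. The Mcidas probe had a mean log2 Cy5 intensity of 13.49, against 9.80 for Foxj1. Its within-group correlation with the other ciliated cell genes was -0.24. Whether this probe reads only Mcidas was not tested.

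Rfx2, an RFX factor, was 0.18, 0.59 and 0.33 in day 28 controls, -0.35, -0.11, 0.07 and 0.06 at 18 µg, -0.04, 0, 0.03 and 0.06 at 54 µg, and 0.19, -0.06, -0.16 and 0.04 at 162 µg. Controls were above every mouse at 18 and 54 µg and overlapped those at 162 µg. The changes were -0.45, -0.36 and -0.36 (SE 0.11 each), with limma adjusted p of 0.894, 0.749 and 0.259, and share those 3 controls. Day 1 controls averaged 0.03 ± 0.11 (SD, n = 4) for Rfx2, below the day 28 controls at 0.37 ± 0.21 (SD, n = 3). That difference of 0.33 was not called either (limma adjusted p = 0.777).

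Of the dynein arm genes, 4 were tested: the heavy chains Dnah5 and Dnah11, Dnali1 of the inner arms, and Dynlrb2. Their median change was -0.13 at 162 µg day 1 and 0.16 at 162 µg day 28. Dynlrb2 was 5.38, 5.52, 5.56 and 5.99 in day 1 controls and 5.63, 4.65, 5.04 and 6.16 at 162 µg, with the lowest and the highest mouse both treated. Its change was -0.24 (SE 0.22, limma adjusted p = 0.698). At the lower doses of day 1, Dynlrb2 was 5.46, 5.56 and 5.65 at 18 µg and 5.32, 4.79 and 5.60 at 54 µg. At day 28, Dynlrb2 was 5.55, 5.53 and 5.50 in controls, 5.79, 5.54, 6.00 and 5.89 at 18 µg, 5.54, 5.86, 5.68 and 5.43 at 54 µg and 5.83, 5.60, 5.60 and 5.68 at 162 µg. All 4 mice at 162 µg were above the 3 controls of day 28, by a mean of 0.15 (SE 0.23, limma adjusted p = 1).

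The 5 tested genes of arm assembly and of doublet linkage (Zmynd10, Dnaaf1, Ccdc39, Drc1 and Ccdc113) had a median change of -0.11 at 162 µg day 1 and 0.05 at day 28. Dnaaf1 lay near the reference, at 0.11, -0.01, 0.13 and 0.19 in day 1 controls and 0.15, 0.06, -0.24 and -0.12 at 162 µg. Its change was -0.14 (SE 0.12, limma adjusted p = 0.686). Dnaaf1 at day 1 was 0.16, -0.07 and 0.32 at 18 µg and 0.15, 0.25 and -0.10 at 54 µg. At day 28, Dnaaf1 was 0.20, 0.08 and 0.09 in controls, 0.06, -0.34, 0.17 and -0.13 at 18 µg, 0.04, -0.05, 0.03 and 0.32 at 54 µg and 0.41, 0.02, 0.19 and 0.36 at 162 µg. Values scattered on both sides of the reference, and the dose groups overlapped the controls.

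The 10 tested genes of the radial spokes and central pair, with those grouped with them here, had medians of -0.08 at 162 µg day 1 and 0.10 at day 28. Rsph4a, of the spoke head, was 1.78, 2.44, 2.46 and 2.35 in day 1 controls and 1.96, 2.13, 0.91 and 2.48 at 162 µg, a change of -0.39 (SE 0.24, limma adjusted p = 0.531). The lower doses of day 1 had Rsph4a at 2.16, 1.77 and 2.41 at 18 µg and 1.87, 1.74 and 1.85 at 54 µg. At day 28, Rsph4a was 2.68, 2.20 and 1.96 in controls, 2.01, 1.88, 2.52 and 2.30 at 18 µg, 1.86, 2.03, 1.91 and 2.24 at 54 µg and 2.66, 1.99, 2.45 and 2.38 at 162 µg. Replicate 3 of 162 µg at day 1 was the lowest mouse of all.

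Rsph9, of the same spoke head, was 2.64, 2.53, 3.63 and 3.12 in day 1 controls and 3.01, 2.87, 2.31 and 3.53 at 162 µg. These groups overlapped, and the change was -0.05 (SE 0.22, limma adjusted p = 0.951). At the lower doses of day 1, Rsph9 was 2.92, 2.62 and 2.69 at 18 µg and 2.98, 2.24 and 2.77 at 54 µg. At day 28, Rsph9 was 3.19, 3.20 and 3.15 in controls, 3.19, 2.85, 3.27 and 2.93 at 18 µg, 2.70, 3.15, 3.21 and 3.04 at 54 µg and 3.54, 3.18, 3.27 and 3.15 at 162 µg. Day 28 controls lay close together, and every dose group overlapped them.

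Spag17, a central pair protein, had 0.58 ± 0.08 (SD, n = 3) in day 28 controls and 1.00 ± 0.18 (SD, n = 4) at 162 µg, with no overlap. The change of 0.42 (SE 0.16) had a limma adjusted p of 0.679, its reference signal was above background on 0 arrays, and it was named after its values were seen. Drc1, Dynlrb2, Dnah11 and Pifo were also wholly above the day 28 controls at 162 µg. The share of all genes that separate in this way was not counted.

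The 10 genes placed with the microtubule wall, Tppp3 among them, had a median of -0.09 at 162 µg day 1 and 0.15 at day 28. Of the 2 genes of the tip and surface, Sntn, of the ciliary tip, was 1.08, 0.84, 2.24 and 2.22 in day 1 controls and 1.91, 1.88, 0.84 and 2.08 at 162 µg, a change of 0.09 (SE 0.31, limma adjusted p = 0.943). Sntn at day 1 was 1.57, 1.16 and 1.33 at 18 µg and 1.75, 1.27 and 1.53 at 54 µg. At day 28, Sntn was 2.16, 1.67 and 2.11 in controls, 1.74, 0.98, 1.95 and 1.5 at 18 µg, 1.33, 1.42, 1.82 and 1.84 at 54 µg and 2.54, 1.84, 1.32 and 1.89 at 162 µg. Control replicates 1 and 2 of day 1 were among the low mice and replicates 3 and 4 among the high ones.

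Cdhr3 was 1.84, 1.27, 2.76 and 2.58 in day 1 controls and 2.15, 2.67, 1.1 and 2.82 at 162 µg. The same mice were low and high as for Sntn in the controls, and the change was 0.07 (SE 0.31, limma adjusted p = 0.951). The lower doses of day 1 had Cdhr3 at 2.18, 1.72 and 1.69 at 18 µg and 2.20, 1.82 and 1.97 at 54 µg. At day 28, Cdhr3 was 2.50, 2.42 and 2.10 in controls, 2.37, 1.70, 2.54 and 2.26 at 18 µg, 1.56, 1.98, 2.09 and 2.15 at 54 µg and 2.88, 2.71, 2.18 and 2.51 at 162 µg. No dose group stood apart from its controls.

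How large a change could have been called bears on these counts. At 162 µg day 1 the median SE was 0.25 over the 34 genes and 0.14 over all genes tested. At the p-value that the adjustment allowed, a gene of the set needed a median change of 0.94 to be called, from 0.33 for Tppp3 to 1.75 for Mcidas, and 14 genes needed over 1. An estimated change below a gene's own value could not be called with these mice, so smaller changes may have gone uncalled.

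Other cilia genes followed the same mice. Of 45 tested further axonemal genes, 38 had a within-group correlation above 0.5 with the mean of the 34 (median 0.84). Of 29 genes of intraflagellar transport and the BBSome, which carry cargo along the cilium, 19 did (median 0.64), and of 10 genes of centriole amplification 4 did (median 0.35). At 162 µg day 1, 0 of the 45, 0 of the 29 and 0 of the 10 were called, with median changes of -0.06, -0.04 and 0.10. Outside all these lists, the named genes most alike were 1600029I14Rik at 0.98 and Mfsd6l and Ccdc121 at 0.97; Nme5, in the axonemal list, was also at 0.97.

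Some markers of neighbouring airway cells moved with the same mice, and their part in the joint variation was not tested. Of 17 club cell genes 9 correlated above 0.5 with the mean of the 34 (median 0.51), and of 8 goblet cell genes 7 did (median 0.67). Of 9 alveolar type I and 10 alveolar type II genes 0 did, with medians of 0.17 and 0.24. Skeletal muscle genes had a median of -0.23 (0 of 19 above 0.5), squamous genes -0.32 (0 of 10) and basal cell genes -0.16 (0 of 7). The club cell genes of highest Cy5 signal, Scgb1a1 (0.1), Cbr2 (0.37) and Cyp2f2 (0.38), were also below 0.5. The club cell list mean ran from 12.09 to 14.09 in log2 Cy5 intensity in day 1 controls and from 11.84 to 13.59 at 162 µg day 1. In the comparison that called Tppp3, the 17 club cell genes had a median change of -0.53, and 12 of them were below 0. At an unadjusted limma p under 0.05, 8 of the 17 (47.1%) passed, against 13% of all genes, and 0 of 17 were called after adjustment. The part of this in the Tppp3 change was not tested.

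A second probe was tested for some genes. Over 8 further probes of 7 genes, the correlation with the probe used was 0.93 for Meig1, 0.91 for Ropn1l 0.76 for Rsph1 and Rsph4a, 0.61 and 0.38 for the other probes of Spag16, 0.44 for Tekt1 and 0.19 for Hydin. At 162 µg day 1 the other Hydin probe changed by 0.10, the one used by -0.22, and that of Rsph4a by -0.06 against -0.39. The sign also differed for Rsph1 (-0.16 against 0.03 on the probe used) and Meig1 (-0.14 against 0.06).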

How the data were processed

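Lung RNA (Cy5) and reference RNA (Cy3) were hybridised together on 36 arrays, never with the dyes swapped, and 7 mice were on 2 arrays, averaged as 1 replicate, which gives 29 mice. Per the labels' protocols, sections of 5 mice a group gave RNA; 3 or 4 a group are analysed here. Per the file headers, spot intensities came from Agilent Feature Extraction 11.0.1.1. The authors deposited these intensities, scanner LogRatio values (log10) and a value table of log2 ratios, whose normalization is not given in the sources used here and which correlated with the ratios computed here at 0.986 to 0.997 per array.

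The main values used normexp with an offset of 50 and loess within arrays in R 4.3.3 with limma 3.58.1 and data.table (1.17.8). Control spots and outlier flags (0.399% of spots) were left out. The log2 Cy5 intensities were taken after these steps and a further quantile normalization between arrays of the average log2 intensity of both dyes. They are therefore not raw intensities. Probes were named through RefSeq identifiers and the RefSeq list of GRCm38.p6 (28026 of 55681 probes, 21154 symbols). The probe of highest mean signal stood for a gene. Genes were tested if at least 3 mice of some group had Cy5 signal well above background on each of their arrays. One limma model over 8 groups (21 residual, 2.9 prior degrees of freedom) gave two-sided p-values, adjusted by Benjamini-Hochberg over all 23256 genes within a comparison and called under 0.05.

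Per array 48.6% to 62.2% of probes were well above background, the median raw Cy5 intensity was 103 to 143, and 0 spots were saturated; the number of arrays limits the precision. The 5 slides, scanned in 3 sessions, each held several groups. The titles give each array its own sample number, and arrays of the same mouse share a mouse number. In simulated data for 162 µg against control at day 1 with 23256 genes, 58% of 100 genes changed 1.5-fold and 78% of 100 changed 2-fold were recovered, with 4 false calls among 140. Noise was drawn for each gene separately, and the changed genes were picked at random from all genes. The ciliated cell genes varied jointly and had a median SE of 0.25, against 0.14 over all genes tested. The recovered shares therefore do not apply to them.

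The ciliated cell genes and the other lists were chosen with earlier results of these data known. The genes given in detail were Tppp3, Foxj1, Mcidas, Dynlrb2, Drc1, Dnaaf1, Rsph9, Rsph4a, Cdhr3 and Sntn, by the rule of the plan (Foxj1, called genes, and in each role the gene of highest mean Cy5 signal and the one of largest change for 162 µg at day 1); Rfx2, Ccdc113 and Spag17 were added after their values were seen. Promoter motifs were searched after values were seen; longer X-box forms were also looked at and are not given. Alternatives are in the closing section.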

Additional observations from a re-analysis of the deposited data

Results flagged for a closer look

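Of 55 values tested for a lone mouse in the 5 groups of 4, 3 passed Dixon's critical ratio of 0.829, which chance passes in about 1 of 20. Rsph4a in day 1 control replicate 1 was 1.78, with the next control at 2.35 (gap over range 0.834). Sntn in replicate 3 of 162 µg at day 1 was 0.84, with the next mouse at 1.88 (0.834). The mean of the 34 genes in replicate 1 of 162 µg at day 28, the mouse with conflicting day labels, was 2.75, with the next at 2.44 (0.948).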

How the results depend on the processing

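Over the 10 comparisons, 220 of 223 recomputed counts of called ciliated cell genes equalled the main one. Most comparisons called few or no genes at all, so an unchanged count of 0 there says little about stability. Only 162 µg against control at day 1 had a called ciliated cell gene to lose. For 162 µg against control at day 1 the count of 1 became 0 with median centring, 0 in a fit of only the groups compared and 0 without muscle arrays. The all-gene median shifts by 0.10 there under median centring, by 0.24 at 54 µg and 0.12 at 18 µg, and Tppp3 at 54 µg turned from -0.20 to 0.19 without being called. Leaving out each of the 8 mice compared kept the Tppp3 call, at -0.48 to -0.37 (limma adjusted p 0.0085 to 0.0434). Arrays left out by slide, and the mean over a gene's probes for the counts, were chosen after seeing the data, as was leaving out Mcidas, with which the median at 162 µg day 1 stayed at -0.09. No paired analysis was possible by replicate number because those numbers were given in accession order and only name mice. Slides did hold treated and control mice together, and with slide as a block and mouse as a random block Tppp3 was still called (-0.42, limma adjusted p = 0.00212). That fit took arrays singly, with a correlation of 0.05 between arrays of the same mouse, shared by all genes. Repeat arrays thus counted nearly as separate mice, which can make this p-value too small.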
